A study of Mus musculus with 18 samples.

Results

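The comparison described here set mouse cells homozygous for the orpk allele of Ift88 (Tg737orpk/orpk, an insertion mutation) against wild-type (WT) cells, both kept under laminar flow at a shear stress of 30 dyn/cm² for 48 h. Its members are all genes with enough reads to test, 13058 of the 21647 genes listed, measured in the 3 orpk and the 3 WT libraries at this shear, 6 of the 18 libraries of the series. The labels call the cells embryonic aortic endothelial cells. They were grown on gelatin-coated flow slides and deprived of serum for 24 h, and poly(A) RNA was sequenced. The other 12 libraries hold the same genotypes in static culture and at 2 dyn/cm², 3 libraries in each group. They are used to ask whether the genotype difference was the same there. They also entered the model fit, and so helped to set which genes were tested, the scaling and the spread behind every p-value. No label names separate animals or isolations, so each genotype may be 1 culture, and the p-values speak only of the spread among these libraries, part or all of which may be technical.

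The primary cilium is a microtubule-based projection of the cell surface that is built and kept up by intraflagellar transport, and IFT88 belongs to the complex that carries cargo towards its tip. The orpk allele is known to leave cilia short or missing. In vascular endothelium the cilium is known as a sensor of flow, alongside the polycystins and other mechanically gated channels. Steady laminar flow is known to raise the transcription factor genes Klf2 and Klf4 in endothelium and to lower genes of leukocyte adhesion. In many cell types the cilium is also where Hedgehog signals are received.

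Ift88 (ENSMUSG00000040040, GRCm38 chromosome 14, 57424062 to 57517936, plus strand) had reads in both genotypes. The WT libraries held 12.8, 13.3 and 13.9 CPM (reads per library scaled by the trimmed mean of M values, TMM) and the orpk libraries held 6.37, 7.36 and 6.98 CPM. All 3 orpk libraries lay below all 3 WT libraries, with means of 6.901 ± 0.5003 and 13.3 ± 0.595 CPM (SD, n = 3). This is a log2 fold change of -0.95 ± 0.11 (SE), with an adjusted p = 8.68e-11 in edgeR's quasi-likelihood test with Benjamini-Hochberg adjustment over all tested genes. Counts per gene do not show where along the transcript these reads lie, and 2 genes of the other strand overlap Ift88 in the annotation.

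The library totals at 30 dyn/cm² ran from 14556970 to 16326784 counts, and over the whole series from 13626480 to 17387553. Replicates at 30 dyn/cm² differed little more than by sampling, with chi-square statistics of 1.20 to 1.92 for each degree of freedom between libraries of a group. For a gene without a read in 1 genotype the fold is a lower bound, computed as if that genotype had 3 reads in all. For a gene with 1 to 3 reads the ratio of the genotypes is given with its exact 95% counting interval. Intervals and bounds cover counting error only. In these bulk samples fewer cells of a type and less RNA per cell cannot be told apart.

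Log2 fold changes are given as orpk minus WT, ± SE. This SE is the absolute log2 fold change divided by the square root of the F statistic of edgeR's quasi-likelihood test. It is not the counting error. Where 1 genotype has few reads, as for Krt18, Snai2, Prrx1 and Cd34 below, it is smaller than the counting error and overstates the precision. Of the 13058 tested genes, 11350 (86.9%) passed an adjusted p of 0.05 in edgeR's quasi-likelihood test, 5860 (44.9%) higher in orpk and 5490 (42.0%) lower, and "higher" and "lower" below refer to this test unless reads or values alone are given. The genotypes had no overlap of library values for 11573 genes (88.6%). Many of these differences were large. By more than 1 on the log2 scale 2931 genes were higher and 2179 lower, and by more than 5 it was 889 and 391. The median absolute log2 fold change among the genes that passed was 0.87, and the median over all tested genes was 0.04. With library totals in place of TMM factors that median moved to -0.28 and the split to 4470 higher and 7143 lower, so the sign of a change smaller than this shift depends on the scaling. Since most genes passed, a list with most of its members called is near the background, and the lists below are described by their direction and size.

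Markers of 3 cell types differed most between the genotypes. WT libraries held keratins and other epithelial genes together with transcription factors of the kidney tubule, most of which were lower in orpk. The orpk libraries held fibroblast genes, all of which were higher there. The defining endothelial genes were at or near 0 in both genotypes.

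Among endothelial genes, Pecam1, the junctional receptor CD31, had 0.479, 0.777 and 0.496 CPM in the WT libraries and 0.225, 0.0714 and 0.465 CPM in the orpk libraries. The 3 orpk values lay below the 3 WT values, but all 6 were under 1 CPM, and the call was lost without orpk replicate 1, orpk replicate 2 or WT replicate 2 (-1.15, -0.76 and -0.95). Cdh5, which encodes VE-cadherin, had 0 reads in WT and 0.674, 1.21 and 1.47 CPM in orpk, and Kdr, the main VEGF receptor gene, had 0 reads and 0.899, 1.0003 and 0.465 CPM. Tie1 had 0 reads in all 6 libraries, and Emcn had 1 read over the 6. Vwf, von Willebrand factor, had 0.1798, 0.166 and 0.0551 CPM in WT against 4.57, 5.36 and 5.43 CPM in orpk. Erg and Tek, a transcription factor and a receptor of endothelium, had 0 and 2 reads in WT and 29 and 25 in orpk. Only a few listed genes, which other cells also express, were read at high levels. Cd34 (ENSMUSG00000016494, GRCm38 chromosome 1, 194938819 to 194961279, plus strand), a sialomucin of endothelium and of fibroblast progenitors, had 0.479, 0.222 and 0.386 CPM in the WT libraries and 741, 739 and 751 CPM in the orpk libraries, a log2 fold change of 10.98 ± 0.09. Flt1, a VEGF receptor gene, had 15.8, 17.5 and 16.04 CPM in WT against 127, 128 and 126 CPM in orpk. Of 30 endothelial genes listed, 18 could be tested, 11 were higher in orpk, 6 lower and 1 did not pass (Ets1, 0.04 ± 0.05, and -0.27 with library totals, adjusted p = 0.393 in edgeR's test). The summed level of the 30 was 542 to 547 CPM in WT against 1265 to 1279 CPM in orpk, and 11 and 9 of them had 0 reads. Cd34 alone gave 739 to 751 CPM of the orpk sum and under 1 CPM of the WT sum, so the higher orpk sum rests on this gene. The defining markers Pecam1, Cdh5, Kdr, Tek, Tie1, Emcn and Erg go against the endothelial label in both genotypes, which are called WT and orpk here, with no cell type.

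Epithelial genes were high in WT. Krt18 (ENSMUSG00000023043, GRCm38 chromosome 15, 102028180 to 102032027, plus strand), a keratin of simple epithelia, had 197, 192 and 181 CPM in the WT libraries and 0.1498, 0.143 and 0.155 CPM in the orpk libraries. Its partner Krt8 had 193, 205 and 192 CPM in WT against 0.824, 1.36 and 0.775 CPM in orpk, and Dsp, the desmosome plaque protein desmoplakin, had 320.1, 317 and 324 CPM and 0.974, 0.929 and 1.01 CPM. No orpk library came near a WT library for any of these, and the log2 fold changes were -10.24 ± 0.13, -7.62 ± 0.10 and -8.36 ± 0.12. For Krt18 the adjusted p was 7.06e-44 in edgeR's test. Epcam, an epithelial adhesion molecule, had 598 reads over the WT libraries and 1 over the orpk libraries, a ratio of 455 (95% counting interval 81.4 to 18018). Elf3, an epithelial transcription factor, had 864 reads in WT and 0 in orpk, which makes it at least 219-fold lower in orpk. Cdh1, the gene of E-cadherin, was at 2 reads in each genotype and could not be tested. Of 23 tested epithelial genes 18 were lower in orpk, 1 was higher and 4 did not pass, with a median of -7.20, or -5.10 where the lower bound stands in for genes without reads. Krt14, a keratin of basal epithelium, was the member that was higher, with 3 reads in WT and 237 in orpk, a ratio of 104 (95% counting interval 35.1 to 507). Krt19, Muc1 and Jup were among those that did not pass, at 0.09 ± 0.09, 0.09 ± 0.23 and -0.03 ± 0.03. Krt19 was -0.22 with library totals, so its sign depends on the scaling.

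Factors of the Snail, Zeb and Twist families, known as repressors of epithelial genes during epithelial-to-mesenchymal transition, ran the other way. Snai2 had 0.1798, 0 and 0.1103 CPM in the WT libraries and 61.3, 61.5 and 59.2 CPM in the orpk libraries, a log2 fold change of 9.21 ± 0.17. Twist1 had 1 read in WT and 1325 in orpk, a ratio of 1739.8 (95% counting interval 312 to 68769.5). Snai1, Zeb1 and Zeb2 were present in WT and higher in orpk, by 2.14 ± 0.08, 1.05 ± 0.05 and 2.15 ± 0.06, and every orpk library was above every WT library. All 16 tested genes of the mesenchymal transition list were higher in orpk, with a median of 2.42, against 44.9% of all tested genes. That list also holds genes outside these families, such as Vim, Cdh2, Cdh11 and Tgfb2. It shares members with the fibroblast list below, among them Prrx1 and Twist1, so the directions of these lists are not independent. The short sequence CACCTG is the form of the E-box that Snail and Zeb proteins are known to bind. Searched on both strands, it was found in 18 of 25 promoter windows of the epithelial list (72% of windows, 16 of 21 genes with a window) and in 20.2% of the 32851 mouse windows searched, each of 300 bases from 250 before to 50 after a start site. Of the genes with a match, Rab25, Ap1m2, Cldn7, Ocln and Krt5 could not be tested, and Muc1, with 2 matches, did not pass. The other genes with a match were lower in orpk, among them the 3 printed below. A match describes the letters only and shows neither binding nor a cause. It overlapped a match of one of the other motifs named below in 7 windows. The 250 bases before the start site are given for 3 genes with different functions, a surface protein, a keratin and a transcription factor, from RefSeq on GRCm38.p6, 5′ to 3′ on the strand of the gene, with the E-box in capitals. They come from chr17:87635729-87635978 (plus strand), chr15:102027966-102028215 (plus strand) and chr1:135258473-135258722 (minus strand), and the first match begins 187, 214 and 140 bases upstream of the start site.
Epcam: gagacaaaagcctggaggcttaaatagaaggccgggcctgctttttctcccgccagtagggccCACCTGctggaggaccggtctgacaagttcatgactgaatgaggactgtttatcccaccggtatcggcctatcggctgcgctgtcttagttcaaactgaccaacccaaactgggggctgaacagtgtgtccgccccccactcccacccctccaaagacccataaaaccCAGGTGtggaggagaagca
Krt18: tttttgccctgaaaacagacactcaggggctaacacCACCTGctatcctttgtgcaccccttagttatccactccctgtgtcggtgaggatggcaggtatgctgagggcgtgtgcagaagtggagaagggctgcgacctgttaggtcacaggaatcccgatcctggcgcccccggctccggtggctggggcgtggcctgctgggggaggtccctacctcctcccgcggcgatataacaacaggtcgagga
Elf3: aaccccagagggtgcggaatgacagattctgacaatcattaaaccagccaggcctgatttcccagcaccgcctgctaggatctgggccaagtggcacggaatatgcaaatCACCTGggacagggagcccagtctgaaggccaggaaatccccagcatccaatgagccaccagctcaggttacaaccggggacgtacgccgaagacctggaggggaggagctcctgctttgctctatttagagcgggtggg

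Genes of the nephron moved in both directions. Pax8, a transcription factor of kidney and thyroid, had 155, 145 and 149 CPM in the WT libraries and 0.2996, 0.429 and 0.465 CPM in the orpk libraries. Pax2, which acts with it in the developing nephron, had 39.6, 39.6 and 40.96 CPM in WT against 0.1498, 0.214 and 0.0775 CPM in orpk. Cdh16, kidney-specific cadherin, had 486, 459 and 473 CPM in WT against 0.2996, 0.572 and 0.6201 CPM in orpk. For each of these genes all WT libraries lay above 30 CPM and all orpk libraries below 1 CPM. The log2 fold changes were -8.53 ± 0.12 for Pax8, -7.99 ± 0.32 for Pax2 and -9.87 ± 0.11 for Cdh16. Sall1, a zinc finger factor of kidney development, had 1198 reads in WT and 0 in orpk and was at least 304-fold lower. Of 15 tested genes of the nephron list 9 were lower in orpk and 6 higher, with a median of -3.85 and a summed level of 1551 to 1623 CPM in WT against 929.97 to 969 CPM in orpk. The highest of the 6 was Slc12a1, a salt transporter of the loop of Henle, with 2 reads in WT and 63 in orpk, a ratio of 41.4 (95% counting interval 10.98 to 349).

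Fibroblast genes were high in orpk. Prrx1 (ENSMUSG00000026586, GRCm38 chromosome 1, 163245119 to 163313710, minus strand), a transcription factor of connective tissue, had 0.1798, 0.388 and 0.221 CPM in the WT libraries and 512, 523 and 532 CPM in the orpk libraries. The log2 fold change was 10.90 ± 0.10 (edgeR adjusted p = 4.68e-49), and no library came between the groups. Pdgfra and Pdgfrb, the PDGF receptor genes of mesenchymal cells, had 1.02, 1.17 and 0.827 CPM and 3.96, 4.22 and 4.69 CPM in WT. In orpk they had 148, 144 and 154 CPM and 663, 679 and 690.2 CPM, and the genotypes did not overlap for either gene. Dpt, a dermatopontin of collagen fibrils, had a mean of 0.188 ± 0.0811 CPM in WT and 201 ± 5.68 CPM in orpk (SD, n = 3). Thy1, a surface protein of fibroblasts and T cells, had 2 reads in WT and 3179 in orpk, a ratio of 2087 (95% counting interval 577 to 17241). All 17 tested genes of the list were higher in orpk, with a median of 8.97 (8.34 with such bounds), and the summed level was 1200.4 to 1206 CPM in WT against 33595 to 35647 CPM in orpk. Of 10 smooth muscle and pericyte genes 7 were higher in orpk and 2 were lower. Acta2 (ENSMUSG00000035783, GRCm38 chromosome 19, 34241090 to 34255590, minus strand), smooth muscle actin, had 0.719, 0.888 and 0.662 CPM in WT against 2082, 1970.05 and 1969.9 CPM in orpk, and Cspg4, the pericyte proteoglycan NG2, had means of 0.822 ± 0.321 and 891 ± 47.2 CPM. Smtn and Mylk, of the contractile apparatus, were lower in orpk (-1.67 ± 0.04 and -1.35 ± 0.11), and Des, the muscle filament desmin, did not pass (0.07 ± 0.16). Leukocyte genes summed to 18.8 to 21.1 CPM in WT against 15.6 to 16.4 CPM in orpk, with 3 higher and 4 lower of 7 tested. The epithelial, nephron and fibroblast markers move with the genotype in every result that follows, and their part in those results was not tested.

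**Figure D1:**
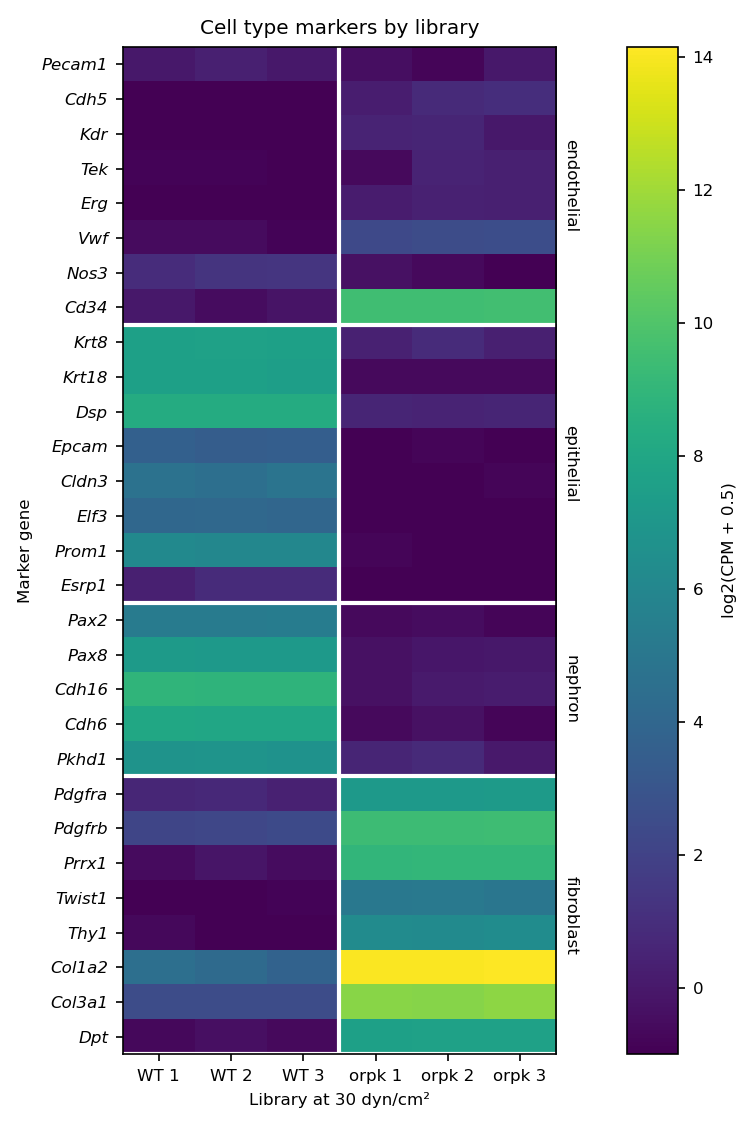
Heat map of marker genes (rows, grouped by list) in the 6 libraries at 30 dyn/cm² (columns), coloured by log2(CPM + 0.5). Endothelial genes other than Cd34 and Vwf are dark in both genotypes, epithelial genes other than Esrp1 and nephron genes are bright in the 3 WT libraries, and fibroblast genes are bright in the 3 orpk libraries.

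Some genes were read in 1 genotype only. At a mean of at least 5 CPM in WT, 109 genes had at most 3 reads over the orpk libraries, and 32 of these had 0. In the other direction 289 genes with at least 5 CPM in orpk had at most 3 reads over the WT libraries, and 108 of these had 0. The 15 lowest and 15 highest log2 fold changes among genes with a mean of at least 5 CPM had at most 7 reads in the genotype where they were low.

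The fitted values that rank these genes depend on the prior count where reads are 0. Lowest in orpk was Cds1 (ENSMUSG00000029330, GRCm38 chromosome 5, 101765130 to 101823858, plus strand), an enzyme of phosphatidylinositol synthesis, with 56.2, 48.7 and 48.4 CPM in WT and 0 reads in all 3 orpk libraries, at least 683-fold lower. Tgfa, the ligand TGF-alpha of the EGF receptor, had 1686 reads in WT and 0 in orpk and was at least 428-fold lower. Dusp2, a phosphatase of MAP kinases, was at least 317-fold lower, Inhbb, the activin subunit inhibin beta B, at least 259-fold, and Akr1b10, an aldo-keto reductase, at least 257-fold. Fam83g, Bex1, Epop and Tex15 likewise had no read in orpk and between 870 and 1267 reads in WT. Prom1, the membrane protein CD133 of epithelial microvilli, had 3532 reads in WT and 1 in orpk, a ratio of 2689.9 (95% counting interval 482 to 106276). Kcnk1, a potassium channel gene, had 3892 reads in WT and 1 in orpk, a ratio of 2964 (95% counting interval 532 to 117105). Megf6, a large secreted protein with EGF repeats, had 249, 251 and 260.3 CPM in WT against 0.0749, 0.143 and 0.0775 CPM in orpk.

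Highest in orpk was Sulf1 (ENSMUSG00000016918, GRCm38 chromosome 1, 12692277 to 12861192, plus strand), an extracellular sulfatase that trims heparan sulfate, with 0 reads in WT and 145, 138 and 135 CPM in orpk, at least 2451-fold higher. Chst2, a sulfotransferase of glycans, was at least 1248-fold higher and Cdh13, T-cadherin, at least 1014-fold. Htr1b, a serotonin receptor gene, was at least 872-fold higher and Tll1, a protease that processes procollagen, at least 738-fold. Cachd1, Scrn1, Cdhr1, Peli2 and Apbb1ip also had no read in WT and between 1329 and 3070 reads in orpk. Col11a1, a fibrillar collagen, had 0.2996, 0.111 and 0 CPM in WT against 661, 684 and 713 CPM in orpk. Grem1, a secreted BMP antagonist, had 0.1198, 0.111 and 0 CPM in WT against 432, 433 and 427 CPM in orpk. Gas6, the ligand of the TAM receptor kinases, had 2 reads in WT and 9230 in orpk, a ratio of 6059.8 (95% counting interval 1677 to 50045). Ildr2 and Rnf150 had 2 reads and 1 read in WT and 8514 and 4842 in orpk.

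**Figure D2:**
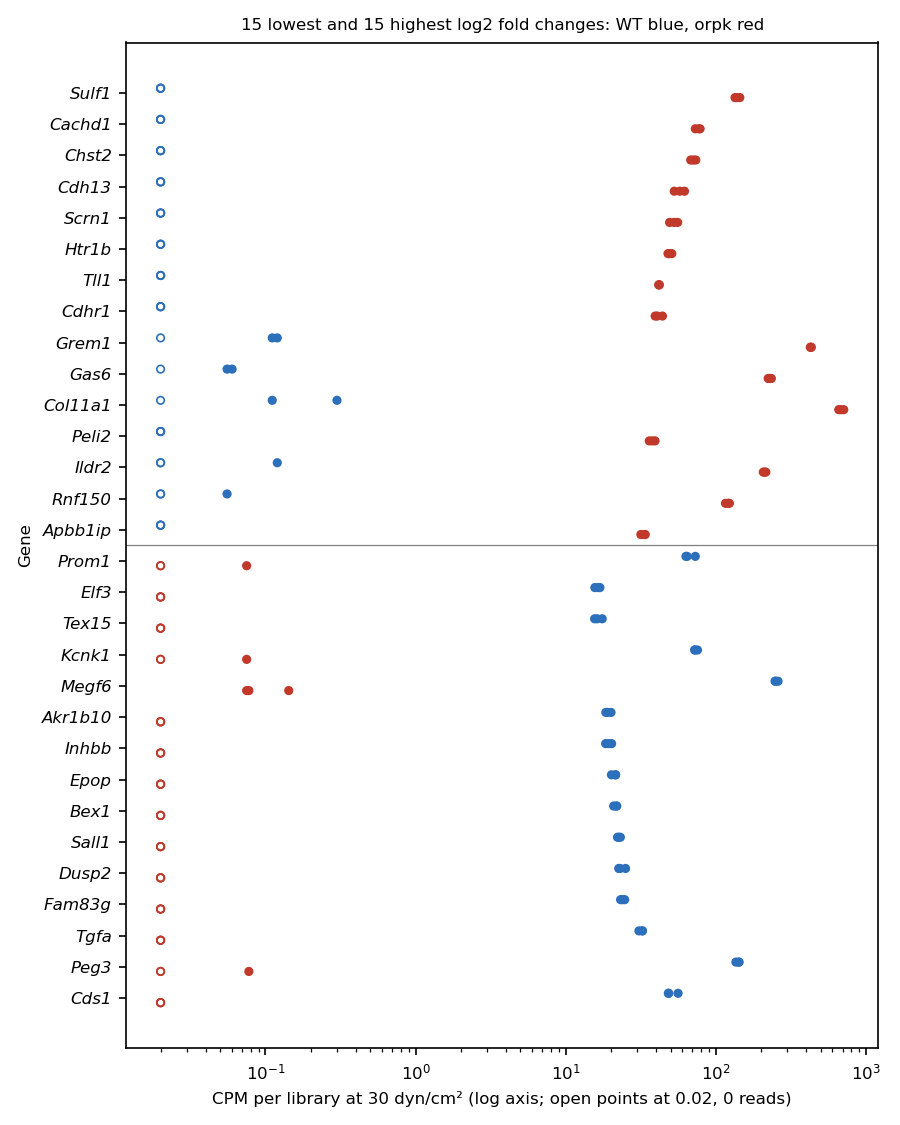
CPM of each library at 30 dyn/cm² on a log axis for the 15 genes with the lowest (bottom) and the 15 with the highest (top) log2 fold change, WT in blue and orpk in red. Open points placed at 0.02 stand for 0 reads, and in every row the points of the genotypes lie apart.

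Most collagen and other matrix protein genes were higher in orpk, like the fibroblast markers. The lists share members, among them Col1a1, Col1a2, Col3a1, Dcn and Lum, so their directions are not independent. Col1a2, a chain of type I collagen, had 22.4, 18.3 and 12.9 CPM in the WT libraries and 17304, 17160.4 and 18260.1 CPM in the orpk libraries, a log2 fold change of 9.95 ± 0.14. Its partner chain Col1a1 was well expressed in WT too, with 1124, 1123 and 1135 CPM against 8603, 8704 and 9228 CPM in orpk (2.97 ± 0.05). The log2 fold changes of these 2 chains of 1 molecule thus differed in size, though both were higher in every orpk library. Col4a1 and Col4a2, which form the common basement membrane collagen, had means of 1.57 ± 0.1198 and 3.84 ± 0.734 CPM in WT against 2609 ± 23.5 and 1329 ± 31.5 CPM in orpk (SD, n = 3). Of 30 tested collagen genes 24 were higher in orpk, 4 lower and 2 did not pass, with a median of 3.06 against 0.04 for all genes. Lower ones included Col18a1, a basement membrane collagen, with 1168, 1127 and 1126 CPM in WT against 12.8, 12.1 and 14.2 CPM in orpk. Col7a1, the anchoring fibril collagen of epithelia, was lower (-3.98 ± 0.08).

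Other matrix proteins were higher in 30 of 33 and lower in 2, with a median of 4.11. These proteins make up the fibres and proteoglycans between cells. Bgn, the proteoglycan biglycan, had 3.84, 3.27 and 2.702 CPM in WT against 6478, 6422 and 6608 CPM in orpk. Lox, the enzyme that crosslinks collagen and elastin, had 2.097, 0.943 and 0.386 CPM in WT against 4343, 4450.2 and 4517 CPM in orpk, and Fbn1, fibrillin, and Thbs2, a thrombospondin, had log2 fold changes of 10.99 ± 0.14 and 12.02 ± 0.09. Fn1, fibronectin, was high in both genotypes, with means of 4141 ± 68.7 CPM in WT and 13722 ± 375 CPM in orpk. The osteopontin gene Spp1 did not pass (-0.13 ± 0.07, edgeR adjusted p = 0.09498). Laminin chains went both ways, 5 higher and 4 lower of 9, with a median of 0.16 that was -0.15 with library totals. Lama5, a chain of epithelial basement membranes, had 597, 602 and 607 CPM in WT against 27.7, 28.5 and 31.5 CPM in orpk. Lama4, a chain of vessel and muscle basement membranes, had 2 reads in WT and 2518 in orpk, a ratio of 1653 (95% counting interval 457 to 13658). Lamb2 was higher in orpk by 2.25 ± 0.05.

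Integrins, the receptors for these proteins, were higher in 12 of 20 and lower in 5. Itga11, a collagen receptor chain of fibroblasts, had 0.0599, 0.0555 and 0.221 CPM in WT against 167, 169.5 and 179 CPM in orpk. Itgb3 was higher by 4.82 ± 0.07. Itga3, a laminin receptor chain of epithelia, was lower, with 284, 284 and 281 CPM in WT against 33.7, 34.3 and 31.9 CPM in orpk, and Itgb6, an epithelial chain, had 217 reads in WT and 3 in orpk, a ratio of 55.1 (95% counting interval 18.6 to 269). Itgb1, the chain shared by most integrins, differed little, by 0.39 ± 0.03. Among proteases and their inhibitors 24 of 31 were higher and 6 lower. These enzymes cut matrix and release factors held in it. Mmp2, a gelatinase, had 2.16, 2.05 and 2.702 CPM in WT against 524, 520.1 and 544 CPM in orpk. Timp3, a metalloproteinase inhibitor, was higher by 10.81 ± 0.10. Mmp15, a membrane-bound protease, was lower, with 40.3, 37.3 and 34.9 CPM in WT against 0.0749, 0.214 and 0.31003 CPM in orpk.

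**Figure D3:**
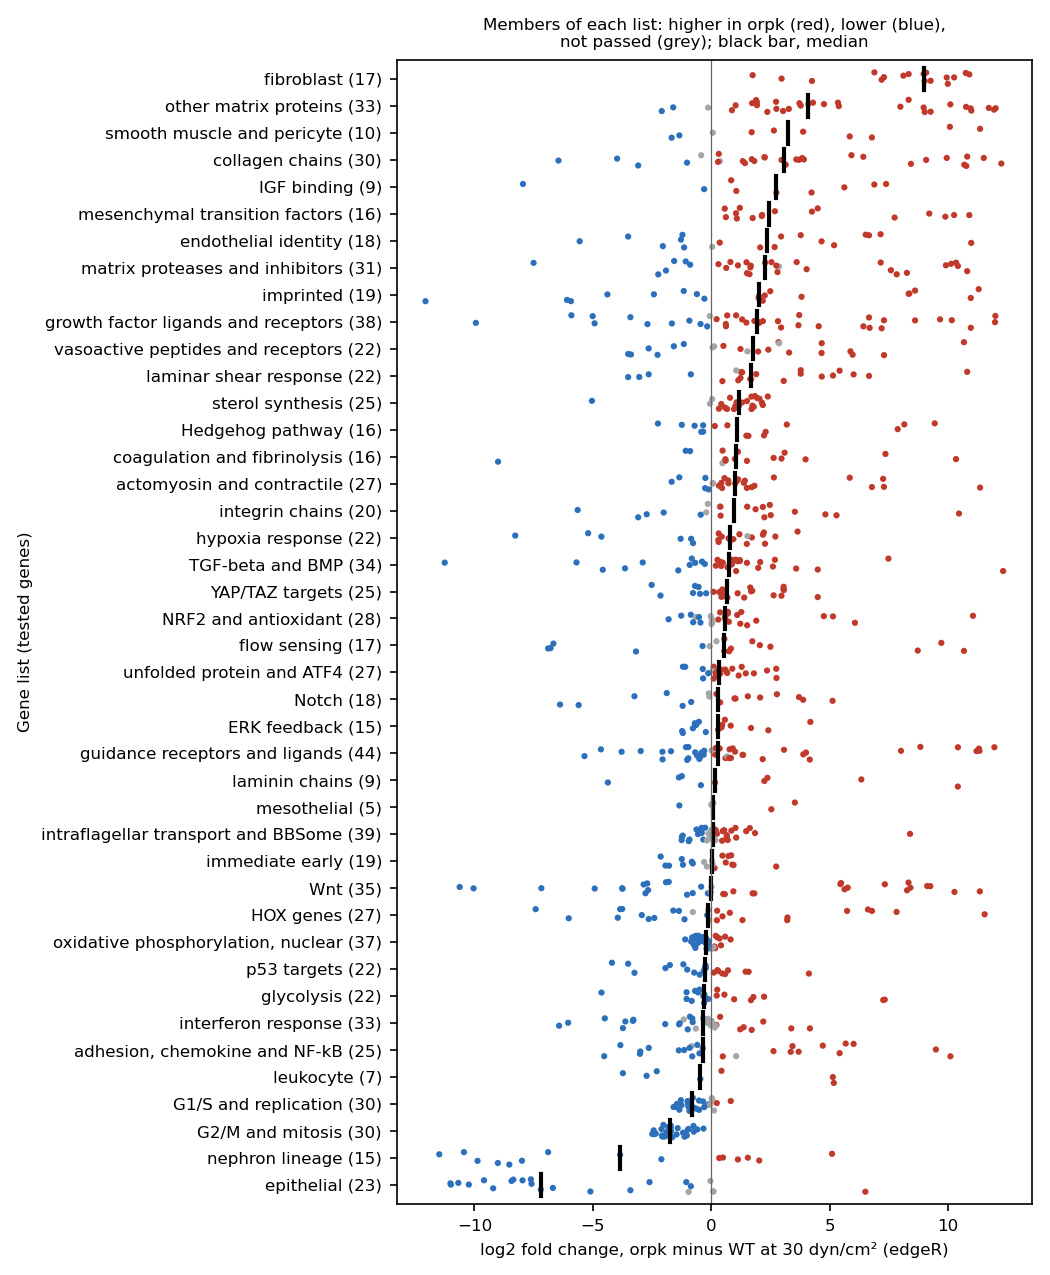
Log2 fold change of orpk against WT at 30 dyn/cm² for every tested member of the gene lists with at least 5 tested genes, by list (rows, with the number tested), as fitted by edgeR. Points are genes, red where higher in orpk, blue where lower and grey where the test was not passed, and the black bar is the median, from -7.20 for epithelial genes to 8.97 for fibroblast genes.

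Contractile genes and targets of the coactivators YAP and TAZ, which respond to tension on the cell, were higher in orpk in the majority of tested members. Myl9, a myosin light chain, had 2.04, 1.66 and 2.26 CPM in the WT libraries and 326, 304 and 311 CPM in the orpk libraries, and Cnn1, calponin, had 0.959, 0.832 and 0.992 CPM and 56.8, 49.4 and 55.96 CPM. The nonmuscle myosin Myh9, the focal adhesion protein vinculin (Vcl) and the crosslinker filamin (Flna) were abundant in both genotypes and higher in orpk by 1.51 ± 0.04, 1.38 ± 0.04 and 1.09 ± 0.05. Of 27 tested actomyosin genes 20 were higher, 5 lower and 2 did not pass, with a median of 1.01, or 0.70 with library totals. Some of these genes are also on the smooth muscle list. A CArG box, the site known to be bound by serum response factor, was found in 5 of 30 windows of this list (16.7%), those of Myl9, Vcl, Cnn2, Myl6 and Srf, and in 1.63% of all windows searched. The 250 bases before the start site of Myl9, from chr2:156775214-156775463 (plus strand), and of Vcl, from chr14:20929148-20929397 (plus strand), are given from RefSeq on GRCm38.p6, 5′ to 3′, with the CArG box in capitals, as examples of a smooth muscle gene and of a gene of all adherent cells.
Myl9: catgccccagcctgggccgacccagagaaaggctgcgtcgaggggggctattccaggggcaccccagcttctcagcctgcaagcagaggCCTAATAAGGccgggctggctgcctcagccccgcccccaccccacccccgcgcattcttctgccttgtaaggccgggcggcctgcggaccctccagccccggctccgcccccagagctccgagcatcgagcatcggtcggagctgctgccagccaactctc
Vcl: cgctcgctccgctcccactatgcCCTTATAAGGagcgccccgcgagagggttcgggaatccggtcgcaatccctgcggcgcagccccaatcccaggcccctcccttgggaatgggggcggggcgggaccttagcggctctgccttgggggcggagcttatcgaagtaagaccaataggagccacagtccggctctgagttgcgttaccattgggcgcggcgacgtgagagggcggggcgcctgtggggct

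YAP and TAZ targets were higher in 18 of 25 and lower in 7, with a median of 0.66. Ccn1, a matricellular protein, had 278, 268 and 266 CPM in WT against 857, 851 and 840.5 CPM in orpk, a log2 fold change of 1.65 ± 0.04. Ccn2 differed less, with 324, 313 and 312 CPM in WT against 449.8, 433 and 433 CPM in orpk (0.47 ± 0.07). Its libraries did not overlap, but with library totals it was at 0.16 and did not pass. Ankrd1 was at 0.10 ± 0.04, and -0.22 with library totals, so its direction depends on the scaling. With library totals 15 of these targets were higher and 8 lower. Wwc1 and Ptpn14, which restrain YAP and are also its targets, were lower in orpk (-2.52 ± 0.05 and -2.14 ± 0.06).

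Genes of flow sensing did not move together. Trpv4, a calcium channel of cilia and endothelium, had 204, 199 and 209 CPM in the WT libraries and 1.65, 2.21 and 1.63 CPM in the orpk libraries, a log2 fold change of -6.79 ± 0.08. It was thus nearly absent from orpk (edgeR adjusted p = 8.54e-45). Pkhd1, the gene of the ciliary protein fibrocystin, had 111, 114 and 105 CPM in WT against 0.974, 1.21 and 0.543 CPM in orpk. Pkd1, polycystin-1, was higher, with 210.3, 209.5 and 207 CPM in WT against 850.1, 899 and 858 CPM in orpk (2.06 ± 0.08). All 3 orpk libraries lay above the WT libraries for Pkd1. Its partner Pkd2 did not pass (-0.06 ± 0.04, edgeR adjusted p = 0.158). The stretch-gated channel genes Piezo1 and Piezo2 were also higher, Piezo1 by 1.74 ± 0.05. S1pr1, a lipid receptor gene of vessels, had 0 reads in WT and 6.14, 6.86 and 6.98 CPM in orpk and was at least 117-fold higher, and Calcrl, the adrenomedullin receptor gene, was at least 228-fold higher. The list as a whole held 10 genes that were higher in orpk and 5 that were lower of 17, and its median was 0.56.

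Genes known to respond to laminar shear were higher in orpk in 17 of 22 and lower in 4, but the list joins genes that flow raises and genes that it lowers in endothelium. Klf4 had 19.1, 18.6 and 18.3 CPM in WT against 258, 262 and 251 CPM in orpk, a log2 fold change of 3.78 ± 0.06. Klf2 had 7.73, 6.16 and 6.23 CPM in WT against 15.3, 16.005 and 16.8 CPM in orpk (1.26 ± 0.12). Nos3, endothelial nitric oxide synthase, was lower in orpk, with 1.38, 1.89 and 2.04 CPM in WT against 0.2996, 0.143 and 0 CPM in orpk. For both Klf genes the orpk libraries lay above the WT libraries, and for Nos3 below them. Other genes of the list had these values. Vcam1, a leukocyte adhesion molecule, had 1.02, 1.66 and 1.43 CPM in WT against 90.5, 86.5 and 92.6 CPM in orpk, and Ccl2, a monocyte chemokine, had 9.41, 10.7 and 9.98 CPM and 434, 414 and 447 CPM. Icam1, another adhesion molecule, did not pass (1.05 ± 0.68, edgeR adjusted p = 0.142). Ptgs2, the inducible cyclooxygenase, was higher by 4.67 ± 0.08, Edn1, the vasoconstrictor endothelin, by 1.24 ± 0.13, and Nqo1, a quinone reductase, by 5.14 ± 0.11. Apln, the peptide apelin, was lower, with 20.4, 19.03 and 18.9 CPM in WT against 2.697, 3.14 and 3.49 CPM in orpk.

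Genes of intraflagellar transport and the BBSome, the machinery to which IFT88 belongs, were divided. Of 39 tested 17 were higher in orpk, 13 lower and 9 did not pass. The median of the family was 0.08, and -0.24 with library totals, so its sign is set by the scaling. Wdr19, of the complex that returns cargo, had 35.4, 35.8 and 39.1 CPM in WT against 115, 110.2 and 117 CPM in orpk, and Hspb11 (IFT25) was higher by 1.85 ± 0.10. Both were above the range of the WT libraries in every orpk library. Dync2h1, the motor of return transport, had 46.7, 48.7 and 48.2 CPM in WT against 19.9, 22.1 and 18.99 CPM in orpk, and Wdr35, also of the return complex, was lower (-1.25 ± 0.05). Bbs1, of the BBSome, was lower (-1.21 ± 0.09). Kif3a, the motor of outward transport, did not differ detectably (-0.0015 ± 0.05, edgeR adjusted p = 0.977). Ift88 itself, at -0.95, thus lay within the range of its family. Ttc30a1 had the largest fitted difference, with 0 reads in WT and 107 in orpk, at least 46.8-fold higher, but it has near-identical copies between which reads may be split.

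In the Hedgehog pathway 10 of 16 genes were higher in orpk and the other 6 were lower. The receptor gene Ptch1, also a target of the pathway, was lower in orpk, with 119, 126 and 121 CPM in WT against 22.7, 26.9 and 27.2 CPM in orpk (-2.25 ± 0.06). The target and transcription factor gene Gli1 was higher, with 2.16, 2.27 and 1.71 CPM in WT against 6.22, 5.29 and 5.74 CPM in orpk (1.49 ± 0.16). For neither Ptch1 nor Gli1 did any WT value overlap an orpk value, and the directions were opposite. Gli2, its activating partner, had 0.0599, 0.166 and 0 CPM in WT against 23.2, 24.3 and 24.03 CPM in orpk, and Gli3 was lower (-0.42 ± 0.04). The transducer gene Smo was higher by 0.68 ± 0.04, and the antagonist Hhip and the coreceptor Boc were nearly unread in WT. Hhip had 0 reads in WT and 221 in orpk, at least 96.7-fold higher, and Boc had 3 and 612, a ratio of 268 (95% counting interval 91.2 to 1302).

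Wnt ligands differed in kind. Wnt7b had 106, 104 and 94.7 CPM in the WT libraries and 0.674, 0.929 and 0.465 CPM in the orpk libraries, and Wnt10a had 2729 reads in WT and 1 in orpk, a ratio of 2078 (95% counting interval 373 to 82120.5). Wnt5a had 1 read in WT and 2811 in orpk, a ratio of 3691 (95% counting interval 662 to 145838), and Ror1, a receptor for it, was at least 172-fold higher in orpk. Lef1, a factor of the canonical pathway, and Axin2, a target of it, were lower in orpk (-4.92 ± 0.12 and -1.91 ± 0.11). In the Wnt list 17 of 35 genes were higher and 16 lower, and the median was 0.01, or -0.30 with library totals. In the Notch list 10 were higher and 6 lower of 18 (median 0.30, and -0.014 with library totals), and the ligand gene Jag1 had 98.1, 92.7 and 92.96 CPM in WT against 272, 275 and 281 CPM in orpk.

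Among growth factor genes, Pdgfb, a PDGF chain, had 175, 174 and 177 CPM in WT against 18.5, 16.9 and 13.8 CPM in orpk, the reverse of the receptor genes above. Fgf1 had 1702 reads in WT and 1 in orpk, a ratio of 1296 (95% counting interval 232 to 51227), while Fgfr1, an FGF receptor gene, had 0.479, 0.333 and 0.331 CPM in WT against 767, 788 and 763 CPM in orpk. Vegfc, the lymphatic growth factor, had 0 reads in WT and 33.4, 32.5 and 31.5 CPM in orpk and was at least 572-fold higher. Ereg, epiregulin, was at least 566-fold higher and Hgf, hepatocyte growth factor, at least 159-fold. Angpt1, a ligand of the TEK receptor, had 2 reads in WT and 1498 in orpk, a ratio of 983 (95% counting interval 272 to 8128). In this list 27 of 38 were higher and 10 lower. In the TGF-beta and BMP list it was 22 and 11 of 34, with Tgfb2 higher by 4.50 ± 0.11.

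HOX genes, which mark position along the body, were evenly divided, with 12 of 27 higher in orpk and 12 lower. Hoxc8 had 0 reads in WT and 21.9, 24.3 and 24.9 CPM in orpk and was at least 418-fold higher, and Hoxc6 had 0.1198, 0.222 and 0.331 CPM in WT against 53.3, 53.6 and 53.5 CPM in orpk. The posterior genes of the HoxA and HoxB clusters named here ran the other way. Hoxa10 was lower, with 75.8, 76.6 and 76.1 CPM in WT against 0.824, 1.29 and 1.395 CPM in orpk. Hoxb13, of the caudal end, had 743 reads in WT and 3 in orpk, a ratio of 189 (95% counting interval 64.3 to 917). Imprinted genes, read from the copy of 1 parent, were among the largest differences in both directions. Peg3, a zinc finger gene, had 7441 reads in WT and 1 in orpk, a ratio of 5667 (95% counting interval 1017 to 223862). The others named were low in WT. Dlk1, a preadipocyte surface protein, had 0.0599, 0.166 and 0.0551 CPM in WT against 206, 204 and 204 CPM in orpk, Grb10 had 0.539, 0.555 and 0.496 CPM and 1355, 1346 and 1364 CPM, and Igf2, a fetal growth factor, was higher by 8.61 ± 0.09. In all 11 of 19 imprinted genes were higher in orpk and 8 lower.

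Genes of cell division were lower in orpk. All 30 genes of the G2/M list were lower, against 42.0% of all tested genes, with a median of -1.73. The genotypes overlapped in none of the 30, but 88.6% of all tested genes also had no overlap. Cenpf, a kinetochore protein, had 266, 270.04 and 271 CPM in the WT libraries and 53.2, 46.9 and 43.7 CPM in the orpk libraries. Its log2 fold change was -2.49 ± 0.05 (edgeR adjusted p = 1.31e-31), and the genotypes lay well apart. Kif11, a spindle motor, had 295, 281 and 292 CPM and 58.5, 51.1 and 51.4 CPM, and Plk1, a mitotic kinase, had 166, 162 and 163 CPM and 33.4, 30.7 and 32.9 CPM. The proliferation marker Mki67 was lower (-1.71 ± 0.06). Anln, of the cleavage furrow, had the smallest difference of the list (-0.33 ± 0.04). Among replication genes 23 of 30 were lower in orpk and 2 were higher, with a median of -0.82. Mcm7, of the replicative helicase, had 374, 366 and 374 CPM in WT against 128, 119 and 123 CPM in orpk, and Lig1, DNA ligase 1, was lower (-1.53 ± 0.04). E2f1, a transcription factor of entry into replication, and Pcna, the polymerase clamp, were the members that were higher (0.83 ± 0.05 and 0.24 ± 0.04, the latter -0.079 with library totals). The cyclin genes Ccne1 and Ccne2 did not pass (0.04 ± 0.05 and 0.02 ± 0.06, and -0.28 and -0.29 with library totals). Targets of p53 went both ways, 9 higher and 13 lower of 22. The lowest in orpk included inhibitors of the cycle. Cdkn1a, the cell cycle inhibitor p21, had 215, 194 and 196 CPM in WT against 20.1, 22.3 and 21.5 CPM in orpk, and Btg2, an antiproliferative gene, had 127, 125 and 123 CPM and 7.49, 5.86 and 7.21 CPM. Fas, a death receptor gene, was higher in orpk by 4.13 ± 0.18.

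Genes of the unfolded protein response and of ATF4, which answer load on the endoplasmic reticulum and shortage of amino acids, were higher in 21 of 27 and lower in 5. Asns, asparagine synthetase, had 73.6, 75.5 and 74.4 CPM in WT against 501, 497 and 513 CPM in orpk. No library of the genotypes overlapped for Asns. Herpud1, of protein disposal from the endoplasmic reticulum, had 48.4, 46.1 and 47.4 CPM and 322, 307 and 323 CPM, and Atf4 itself was higher by 1.46 ± 0.04. The median of this list was 0.32, and with library totals it was 0.01, with 12 genes higher and 9 lower. Nuclear genes of oxidative phosphorylation were lower in 26 of 37 and higher in 8, by small amounts (median -0.24, and -0.55 with library totals). Glycolysis genes were higher in 9 and lower in 13 of 22, and hypoxia genes higher in 15 and lower in 6 of 22.

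Of 33 genes that interferon is known to induce 15 were lower in orpk, 8 were higher and 10 did not pass. Irf7, a transcription factor of the response, had 8.63, 9.21 and 9.76 CPM in WT against 0.1498, 0 and 0.155 CPM in orpk, and Oasl1, which restrains its translation, had 10.7, 9.82 and 10.5 CPM and 0.0749, 0.286 and 0.0775 CPM. B2m, the light chain of class I major histocompatibility molecules, was higher, with 213, 218 and 222 CPM in WT against 565, 562 and 561 CPM in orpk. Chemokines went both ways. Ccl7 had 0.1198, 0.111 and 0.221 CPM in WT against 174, 172 and 180.05 CPM in orpk, and Cxcl12, which attracts progenitor cells, had 0.1798, 0.0555 and 0.1103 CPM and 93.03, 83.2 and 85.6 CPM. Neither was read above 1 CPM in WT. Cxcl10, an interferon-induced chemokine, had 32.5, 36.3 and 37.6 CPM in WT against 1.05, 1.07 and 2.56 CPM in orpk, and Cx3cl1 was lower (-3.84 ± 0.11).

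The question whether shear alters the genotype difference was addressed by setting the difference at 30 dyn/cm² against that in static culture. These comparisons share no library. In static culture 11465 of 13058 genes passed (87.8%), and 9372 genes passed in the same direction at both, which is 82.6% of the calls at 30 dyn/cm² and 81.7% of those in static culture. The cell type markers were among them: the medians of the epithelial list were -7.20 at 30 dyn/cm² and -4.33 in static culture, and those of the fibroblast list 8.97 and 9.31. The difference itself was not the same for 7504 genes (57.5%) in the interaction test of edgeR's quasi-likelihood model, 3992 (30.6%) more towards orpk at 30 dyn/cm² and 3512 (26.9%) less, or 3275 and 4382 with library totals. A gene is called more towards orpk where orpk minus WT was larger at 30 dyn/cm². Of these, 806 and 821 differed by more than 1 on the log2 scale. Genes called in opposite directions numbered 894 (6.85%), of which 539 were higher in orpk at 30 dyn/cm² and lower in static culture.

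**Figure D4:**
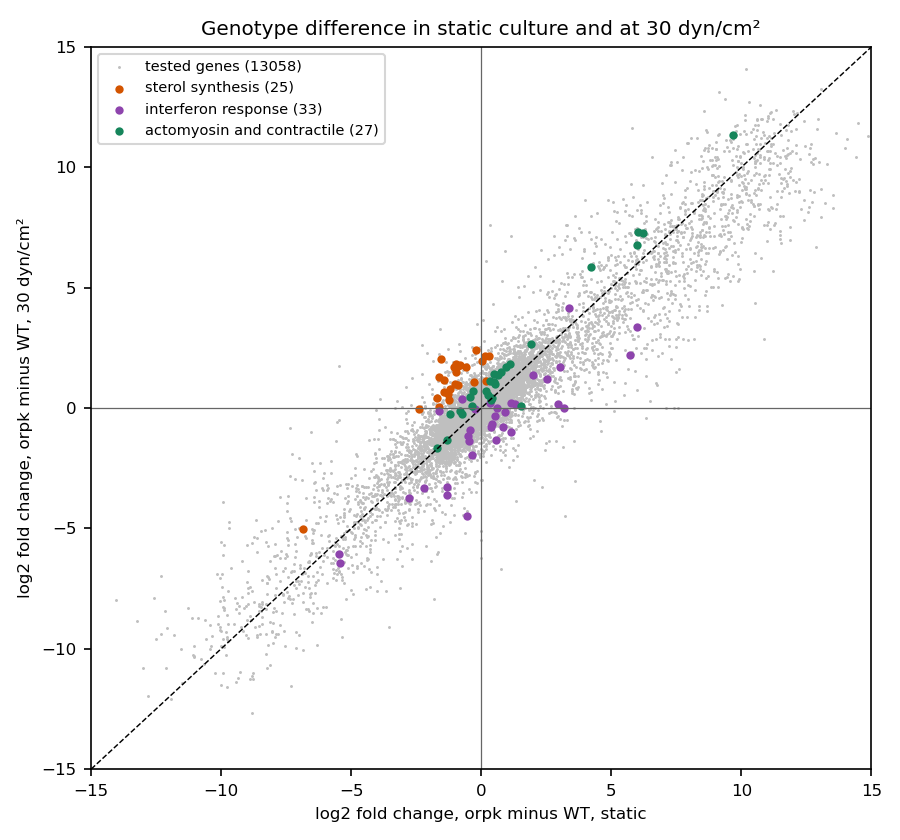
Log2 fold change of orpk against WT at 30 dyn/cm² (vertical) against that in static culture (horizontal) for 13058 tested genes, with the dashed line marking equal values and 3 lists in colour. The 9372 genes called in the same direction lie to the lower left and the upper right, the 25 sterol genes lie above it, and 22 of 33 interferon genes passed the interaction test below it.

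Sterol synthesis genes stood out in this interaction. All 25 of 25 were more towards orpk at 30 dyn/cm² than in static culture, against 30.6% of all tested genes, and 17 of 25 changed direction between called differences, against 6.85%. Their median log2 fold change was -1.01 in static culture, 0.37 at 2 dyn/cm² and 1.17 at 30 dyn/cm². At 30 dyn/cm² 22 were higher in orpk, 1 was lower and 2 did not pass (21 higher and 3 lower with library totals). The pathway makes cholesterol from acetyl-CoA and is known to be switched on by the SREBP-2 factor when sterols in the endoplasmic reticulum are low.

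Lss (ENSMUSG00000033105, GRCm38 chromosome 10, 76531588 to 76557138, plus strand), lanosterol synthase, had 106, 109 and 107 CPM in WT against 260.5, 268 and 263 CPM in orpk at 30 dyn/cm², and 420.1, 436 and 429 CPM and 140.3, 142 and 133 CPM in static culture. The order of the genotypes was thus reversed, without overlap in either, and the difference was 2.93 ± 0.05 (edgeR adjusted p = 6.21e-36). Tm7sf2 (ENSMUSG00000024799, GRCm38 chromosome 19, 6062821 to 6068373, minus strand), a sterol reductase, had 24.9, 23.6 and 23.3 CPM in WT against 96.7, 98.7 and 99.3 CPM in orpk at 30 dyn/cm². In static culture it had 49.4, 47.1 and 52.7 CPM and 15.97, 19.2 and 16.03 CPM, again in the reverse order, with a difference of 3.58 ± 0.10. Both genotypes moved: the WT mean of Lss was 428 CPM in static culture and 107 CPM at 30 dyn/cm², and the orpk mean was 138 and 264 CPM.

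The entry step of the pathway followed. Hmgcs1, which makes HMG-CoA, had 236, 251 and 241 CPM in WT against 535, 552 and 551 CPM in orpk at 30 dyn/cm², and 719, 717 and 699.7 CPM and 249.95, 258 and 274 CPM in static culture, a difference of 2.62 ± 0.05. Fdps and Msmo1, of the middle and late steps, were higher at 30 dyn/cm² by 1.85 ± 0.05 and 2.39 ± 0.04. Cyp51 and Ebp did not differ detectably at 30 dyn/cm² (-0.06 ± 0.03 and 0.04 ± 0.04, edgeR adjusted p = 0.128 and 0.417; -0.37 and -0.28 with library totals, where Cyp51 passed), and both were lower in orpk in static culture (-2.40 ± 0.04 and -1.64 ± 0.05). Scd1, a fatty acid desaturase outside the list, went from -1.29 ± 0.03 in static culture to 1.36 ± 0.03. The sterol regulatory element TCACNCCAC, searched on both strands, which SREBP factors are known to bind, was found in 1 of 20 windows of the list, that of Hmgcs1, and in 1.24% of all windows. That absence from the others says only that these letters are not in those windows. The Hmgcs1 promoter, 250 bases before the start site from chr13:119690101-119690350 (plus strand, RefSeq, GRCm38.p6), is given with the element in capitals, which begins 137 bases upstream.
Hmgcs1: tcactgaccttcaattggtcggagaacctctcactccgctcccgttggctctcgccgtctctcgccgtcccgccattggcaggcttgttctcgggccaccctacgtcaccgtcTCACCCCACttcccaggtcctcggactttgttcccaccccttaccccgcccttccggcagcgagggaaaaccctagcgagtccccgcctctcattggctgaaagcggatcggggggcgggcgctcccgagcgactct

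**Figure D5:**
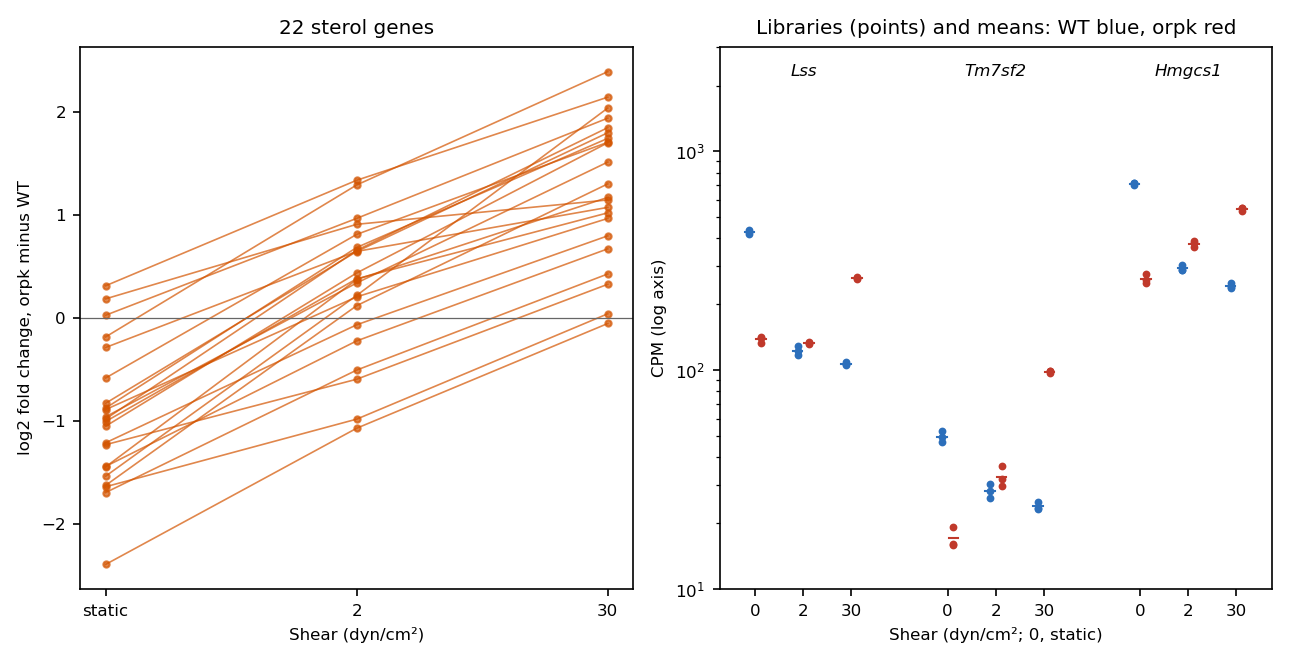
Left, log2 fold change of orpk against WT for 22 of the 25 sterol genes in static culture and at 2 and 30 dyn/cm², 1 line per gene, each ending higher at 30 dyn/cm² than in static culture. Right, CPM of each library on a log axis for Lss, Tm7sf2 and Hmgcs1, with WT in blue, orpk in red and bars for group means; all 3 have WT above orpk in static culture and orpk above WT at 30 dyn/cm².

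Other lists also moved in the interaction, in which 30.6% of all tested genes were more towards orpk at 30 dyn/cm² and 26.9% less. Replication genes were more towards orpk at 30 dyn/cm² in 28 of 30 and less in 0, with medians of -1.40 in static culture and -0.82 at 30 dyn/cm². G2/M genes were less so in 18 of 30 and more in 4 (medians -1.15 and -1.73), so the lists of replication and of mitosis moved in opposite directions. Actomyosin genes were more towards orpk in 20 of 27 and less in 1, and YAP and TAZ targets in 16 of 25 and 3. Interferon genes were less so in 22 of 33 and more in 3, with medians of 0.42 in static culture and -0.33 at 30 dyn/cm².

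Single genes show what lies behind these counts. Ccn2 was lower in orpk in static culture, with 43.5, 55.3 and 53.04 CPM in WT against 10.3, 12.7 and 8.05 CPM in orpk, and higher at 30 dyn/cm², a difference of 2.75 ± 0.15. Acta1, skeletal muscle actin, had 0.779, 0.333 and 0.551 CPM in WT against 23.3, 21.01 and 20.2 CPM in orpk at 30 dyn/cm², and 0.653, 0.3499 and 0.575 CPM and 0.713, 0.904 and 1.17 CPM in static culture (4.48 ± 0.51). In static culture it was under 2 CPM in all libraries. Jag1 had 197, 173 and 183 CPM in WT against 66.7, 74.3 and 79.5 CPM in orpk in static culture, the reverse of its order at 30 dyn/cm² (2.87 ± 0.07). Vldlr, a lipoprotein receptor gene, had means of 212 ± 13.3 CPM in WT and 58.04 ± 0.499 CPM in orpk in static culture, and 11.7 ± 0.0971 and 46.03 ± 4.25 CPM at 30 dyn/cm² (3.83 ± 0.09). Klf4 was higher in orpk in both conditions and more so at 30 dyn/cm² (2.20 ± 0.09). Apln differed little in static culture (-0.24 ± 0.05) and lower in orpk at 30 dyn/cm², a difference of -2.40 ± 0.13, and Aqp1, a water channel gene, went from 0.02 ± 0.11 to 2.03 ± 0.11 (2.01 ± 0.15). Col4a3, a collagen of the glomerular basement membrane, was lower in orpk in static culture (-2.29 ± 0.17) and higher at 30 dyn/cm² (1.42 ± 0.09, a difference of 3.71 ± 0.19).

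Some differences shrank instead. Pdgfra had a mean of 1775 ± 18.2 CPM in orpk in static culture and 149 ± 4.97 CPM at 30 dyn/cm², against 0.601 ± 0.231 and 1.004 ± 0.1696 CPM in WT, a difference of -4.27 ± 0.40. Spon2, a secreted matrix protein, had means of 0.383 ± 0.237 CPM in WT and 42.5 ± 2.801 CPM in orpk in static culture and 1.33 ± 0.249 and 2.62 ± 0.286 CPM at 30 dyn/cm² (-5.79 ± 0.39). The chemokine gene Ccl5 had means of 7.17 ± 0.458 CPM in WT and 29.2 ± 1.63 CPM in orpk in static culture, and the order was reversed at 30 dyn/cm², with 7.76 ± 1.23 and 0.965 ± 0.328 CPM (-5.03 ± 0.34). C1qtnf3, a secreted protein of the C1q and TNF family, moved the other way, with means of 39.8 ± 4.57 CPM in orpk in static culture and 1109 ± 34.4 CPM at 30 dyn/cm² while WT stayed under 1 CPM (5.83 ± 0.92). Gbp8, Abcd2, Slc1a3, Lrrtm4 and Itm2a had 0 reads in static WT and at most 3 at 30 dyn/cm². Their orpk means were 59.5, 18.7, 94.5, 67.96 and 76.1 CPM in static culture and 4.74, 3.34, 14.7, 11.05 and 23.96 CPM at 30 dyn/cm².

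Against 2 dyn/cm², the genotype difference at 30 dyn/cm² was not the same for 6073 of 13058 genes (46.5%), 3261 more towards orpk and 2812 less, or 2386 and 3756 with library totals. This comparison uses groups at 2 dyn/cm² in each of which 1 library stood apart. WT replicate 1 at 2 dyn/cm² had chi-square statistics of 6.10 and 7.43 for each degree of freedom against its partners, and orpk replicate 2 had 3.28 and 3.66. Without these the counts were 6022 and 5801. All 30 G2/M genes and 28 of 30 replication genes were less towards orpk at 30 than at 2 dyn/cm², beside 2812 of all 13058 tested genes. More towards orpk were 24 of 25 sterol genes and 24 of 27 genes of the unfolded protein response, beside 3261 of 13058. Anxa8, an annexin, had means of 13.6 ± 0.582 CPM in WT and 17.2 ± 1.77 CPM in orpk at 2 dyn/cm² and 33.6 ± 1.08 and 326 ± 6.01 CPM at 30 dyn/cm² (2.93 ± 0.11). Pi16, a surface protein of fibroblast progenitors, had 1.59 ± 0.183 CPM in orpk at 2 and 28.6 ± 2.702 CPM at 30 dyn/cm², with WT under 1 CPM (4.38 ± 0.65). Txnip, an inhibitor of thioredoxin, had 344 ± 48.7 CPM in orpk at 2 dyn/cm² and 18.7 ± 1.38 CPM at 30 dyn/cm², while its WT means were 37.5 ± 0.938 and 22.4 ± 1.398 CPM (-3.46 ± 0.18). Cbs, of the transsulfuration pathway, was lower in orpk at both shears and less so at 30 dyn/cm² (3.70 ± 0.41).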

How the data were processed

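Single 50-nt reads of stranded poly(A) libraries, per the labels' protocols, had been made into whole-number counts per gene before deposit, and these counts are as the authors deposited them, with no normalization. Per the submitters' processing notes, CASAVA 1.8.2, STAR 2.4 and featureCounts 1.4.6 were used with GRCm38. The strand setting and the treatment of reads with several matches are not given in the sources used here, so genes with near-identical copies or overlapping genes are uncertain: of 239 named genes that were tested, 103 overlap a gene on the other strand. Coordinates are those of GENCODE on GRCm38, and promoters those of RefSeq on GRCm38.p6, where windows on chromosome 18 were not searched.

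Samples were grouped by their labels. Of 21647 genes, 3937 had no read and 13058 passed edgeR's filter on low counts. A quasi-likelihood model with 1 mean for each of the 6 groups was fitted to all 18 libraries in edgeR 4.0.16 (R 4.3.3) with TMM factors, which left 12 residual degrees of freedom, and p-values were adjusted by Benjamini-Hochberg over all tested genes at 0.05. The biological coefficient of variation was 3.28%. The code was tested on simulated data. Alternatives were DESeq2 1.42.0 and its size factors, library totals, no filter, the compared groups alone, a replicate block and each library left out.

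The members and the 43 gene lists were chosen with earlier results of these data known. The rule named Ift88, the 15 highest and 15 lowest fold changes, the 8 highest and lowest differences against static culture, 5 and 5 against 2 dyn/cm², 8 genes of opposite direction, and up to 6 genes of each list with the largest change plus those that did not pass. Only some of these are printed, and 70 genes outside the rule were named after their values were seen. No set test was run. Some members of the lists are counted but not reported singly here.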

Additional observations from a re-analysis of the deposited data

Results flagged for a closer look

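For 7504 genes the difference between the genotypes was not the same at 30 dyn/cm² as in static culture, and for 6073 genes it was not the same as at 2 dyn/cm², by the interaction test of edgeR's quasi-likelihood model. The genes below passed that test and had more than 3 reads in each group compared. Each value is orpk minus WT on the log2 scale at 30 dyn/cm², less the same quantity in the other condition.

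Of the sterol genes, Lss stood at 2.93, Tm7sf2 at 3.58 and Hmgcs1 at 2.62 against static culture. Vldlr stood at 3.83. Genes of tension, flow and vessels were Acta1 at 4.48, Ccn2 at 2.75, Klf4 at 2.20, Jag1 at 2.87, Aqp1 at 2.01 and Apln at -2.40. Secreted and matrix genes were C1qtnf3 at 5.83, Col4a3 at 3.71, Spon2 at -5.79 and Ccl5 at -5.03, and the receptor gene Pdgfra stood at -4.27.

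Cys1, the gene of the ciliary protein cystin, stood at 4.05: its WT mean was 31.3 ± 0.866 CPM in static culture and 7.47 ± 0.536 CPM at 30 dyn/cm², and its orpk mean was 0.139 ± 0.00906 and 0.569 ± 0.181 CPM (SD, n = 3). Aldoc, a glycolytic aldolase, stood at 4.02, with WT means of 255 ± 10.2 and 8.21 ± 0.583 CPM. Cdkl1, a kinase, and Rassf6, of the RASSF family, stood at 4.95 and 4.23, and both were lower in orpk in each condition. Spib, a lymphoid transcription factor, stood at -5.63 and Angptl7, a secreted protein, at -4.75, both higher in orpk in static culture and lower at 30 dyn/cm². Ptprq, a phosphatase, stood at 4.93 and Ms4a2, an immunoglobulin E receptor subunit, at 3.87, both in the other order. Spib, Angptl7, Ptprq and Ms4a2 were under 2 CPM in every library at 30 dyn/cm².

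Against 2 dyn/cm², Pi16 stood at 4.38, Cbs at 3.70, Anxa8 at 2.93 and Txnip at -3.46.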

How the results depend on the processing

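The count of genes that differed between the genotypes at 30 dyn/cm² was 11350, and from 11167 (DESeq2) to 12003 (no filter on low counts, 17710 genes tested) under the other settings. Leaving out each library in turn gave 11184 to 11280 genes. The interaction counts were 7504 against static culture (7195 to 7318 with a library left out) and 6073 against 2 dyn/cm² (5656 to 6022). With the replicate number as a block (replicate block) they were 11345, 7505 and 6042. Deviations of same-numbered orpk and WT libraries correlated at 0.00712, 0.00368 and 0.000287. Replicates differed little more than by sampling, so these values cannot tell whether the numbers pair the samples. Library totals in place of TMM moved the median of all genes from 0.04 to -0.28 and reversed small values: Ankrd1 -0.22, Ccne1 -0.28, Ccne2 -0.29, Ebp -0.28, Ephb4 -0.30, Ets1 -0.27, Krt19 -0.22 and Pcna -0.079. The medians of these lists reversed too: intraflagellar transport -0.24, laminins -0.15, immediate early genes -0.28, ERK feedback -0.023, Notch -0.014, Wnt -0.30 and guidance genes -0.038. Pecam1 did not pass under DESeq2 (-1.22). Ankrd1 lost its call without orpk replicate 1 or WT replicate 3 (0.06 and 0.08). Angptl7 lost its call at 30 dyn/cm² without orpk replicate 1, orpk replicate 3 or WT replicate 3 (-1.06, -1.39 and -1.30). Spp1 and Txnip, which did not pass at 30 dyn/cm², passed under DESeq2, library totals, no filter and the compared groups alone. Cyp51, Jup, Kif3a and Pkd2 passed with library totals, and Cyp51 and Pkd2 also with the compared groups alone. The causes were not tested. At this depth a gene with few reads has a wide interval, and a group without reads gives only a bound.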

Other observations

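Among genes of vascular tone, 12 of 22 tested were higher in orpk, beside 44.9% of all tested genes, and 6 were lower, with a median log2 fold change of 1.76. Ptgs1, the constitutive cyclooxygenase, had 3.96, 4.11 and 3.31 CPM in WT against 233, 242 and 239.9 CPM in orpk. Ptgis, which makes prostacyclin from its product, had 0.599, 0.888 and 0.827 CPM against 46.3, 44.3 and 48.1 CPM. Ednra, an endothelin receptor gene of smooth muscle, had 1 read in WT and 170 in orpk, a ratio of 223 (95% counting interval 39.5 to 8868). No orpk library overlapped a WT library in these 3 genes.

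In coagulation and fibrinolysis 12 of 16 genes were higher in orpk and 3 lower. Tfpi, the inhibitor of tissue factor, had 5.99, 5.66 and 6.89 CPM in WT against 98.9, 95.9 and 99.8 CPM in orpk, and Serpine2, an inhibitor of thrombin, had 2 reads in WT and 2385 in orpk, a ratio of 1566 (95% counting interval 433 to 12937). F2rl1, a protease-activated receptor gene of epithelia, ran the other way, with 69.4, 67.6 and 66.3 CPM in WT against 0.0749, 0 and 0.31003 CPM in orpk.

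Guidance receptors and ligands were divided, 23 of 44 higher and 19 lower, with a median of 0.28 that was -0.038 with library totals. Slit3, a secreted ligand, had 2 reads in WT and 4662 in orpk, a ratio of 3061 (95% counting interval 847 to 25281). Sema5a, a semaphorin, had none in WT and 819 in orpk and was at least 358-fold higher. Ephb4, the ephrin receptor of veins, did not pass, with 222, 217 and 217 CPM in WT against 219, 213 and 231 CPM in orpk (0.02 ± 0.04, and -0.30 with library totals). Of 9 IGF-binding genes 7 were higher and 2 lower. Igfbp6 had 3.296, 2.996 and 3.69 CPM in WT against 157, 168 and 168 CPM in orpk, and Igfbp2 had 103 reads in WT and none in orpk, at least 26.1-fold lower.

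The list of antioxidant genes and of genes tied to their regulator NRF2 had 28 tested members, with 17 higher in orpk and 6 lower. Slc7a11, the cystine transporter, had 4.67, 4.66 and 4.25 CPM in WT against 116, 122 and 129.6 CPM in orpk, and Hmox1, heme oxygenase, had 77.7, 79.95 and 83.3 CPM against 294, 285 and 322 CPM. Among hypoxia genes Car9, a carbonic anhydrase, had a log2 fold change of 3.65 ± 0.26 at 30 dyn/cm² and 0.07 ± 0.10 in static culture. Car9 was the highest of its list at 30 dyn/cm², where the values reached down to -8.28. In that list 15 of 22 were higher in orpk and 6 lower. Immediate early genes were divided, 8 higher and 7 lower of 19, with a median of 0.03 that was -0.28 with library totals. Egr1, one of them, was lower, with 194, 189 and 185 CPM in WT against 42.2, 44.4 and 42.5 CPM in orpk. In ERK feedback 8 were higher and 7 lower of 15 (median 0.29, and -0.023 with library totals), and Dusp4, a phosphatase of MAP kinases, had 15.9, 14.3 and 13.1 CPM in WT against 258, 271 and 257 CPM in orpk. Adhesion, chemokine and NF-kB genes counted 11 higher and 12 lower of 25. Of 5 mesothelial genes 2 were higher and 1 was lower, with Msln, mesothelin, at 29.9, 27.9 and 27.1 CPM in WT against 162, 164 and 168 CPM in orpk. Pdpn, podoplanin, was the only lymphatic gene that could be tested, with 0.599, 0.444 and 0.331 CPM against 92.2, 92.2 and 90.2 CPM.

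Genes of the Y chromosome were read in both genotypes and lower in orpk. Ddx3y had 64.001, 69.1 and 65.8 CPM in WT against 12.2, 13.6 and 11.8 CPM in orpk at 30 dyn/cm², and Kdm5d had 43.6, 42.4 and 39.8 CPM against 6.22, 6.29 and 5.81 CPM. Uty and Eif2s3y had log2 fold changes of -2.76 ± 0.10 and -3.30 ± 0.08 there. In static culture the values were -2.52 ± 0.07 for Ddx3y, -3.16 ± 0.09 for Kdm5d, -2.96 ± 0.10 for Uty and -3.13 ± 0.08 for Eif2s3y. Over genes with a mean of at least 5 CPM, the median log2 fold change at 30 dyn/cm² ran from -0.42 on chromosome 7 (769 genes) to 0.53 on chromosome 4 (674 genes) outside the Y chromosome, where it was -2.76 over 5 genes. The cause was not tested.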
